A study of Mus musculus with 63 samples.

Results

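The let-7 family is a set of 8 mature microRNAs (miRNAs) in this data set, mmu-let-7a-5p, mmu-let-7b-5p, mmu-let-7c-5p, mmu-let-7d-5p, mmu-let-7e-5p, mmu-let-7f-5p, mmu-let-7g-5p and mmu-let-7i-5p, to which mmu-miR-98-5p belongs by its sequence. They are written below without the species prefix and, where no arm is given, stand for the 5p arm. These 9 were taken by name, at every genomic locus that carries the name, under a rule that uses no measured value. They make up 9 of the 1966 mature names in the count table and 12 of its 2110 loci, because let-7a-5p, let-7c-5p and let-7f-5p are each listed at 2 loci.

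let-7 miRNAs are cut from hairpin precursors and loaded into Argonaute, where the seed near the 5′ end pairs with messenger RNAs and lowers their output. The family is scarce in stem cells, where the protein LIN28 blocks processing of many of its precursors, and abundant in differentiated tissue. Its textbook targets include growth and cell cycle genes such as Hmga2, Myc and Ras genes.

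Small RNA was sequenced from cells that were sorted by fluorescence from kidneys of male C57BL/6 mice aged 8 to 12 weeks, in 4 conditions. Sham mice had an operation without obstruction, UUO-2 and UUO-7 mice had unilateral ureteric obstruction (UUO) for 2 or 7 days, and R-UUO mice had 7 days of obstruction followed by re-implantation of the ureter and 14 days of reversal. From each mouse endothelial cells (ECs, CD31+), F4/80+ macrophages (Macs), proximal tubular cells (PT cells, bound by Lotus tetragonolobus lectin, LTL) and PDGFR-β+ stromal cells were collected. Each of the 16 groups held 4 mice, apart from UUO-7 PDGFR-β+ cells with 3, after the study removed 1 library as an outlier. The 63 libraries came from 16 mice, so the 4 cell types of a mouse are not independent of each other.

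All 9 members share bases 2 to 8, the seed that sets most of a miRNA's targets, so the sequences below show how little separates them. They are the RefSeq mature sequences (GRCm38.p6), 5′ to 3′, with the seed in capitals.
let-7a-5p: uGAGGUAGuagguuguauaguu
let-7b-5p: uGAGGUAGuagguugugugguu
let-7c-5p: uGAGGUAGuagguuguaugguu
let-7d-5p: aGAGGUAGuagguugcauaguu
let-7e-5p: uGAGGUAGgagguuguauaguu
let-7f-5p: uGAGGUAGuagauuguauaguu
let-7g-5p: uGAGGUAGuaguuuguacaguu
let-7i-5p: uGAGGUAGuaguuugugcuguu
miR-98-5p: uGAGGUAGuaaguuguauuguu

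With positions counted from 1 at the 5′ end and the base of let-7a given first, let-7c carried A19G, let-7e U9G and let-7f G12A, a single change each. let-7b carried A17G and A19G, let-7d U1A and U16C, let-7g G12U and U18C, and miR-98 G11A and A19U. let-7i was the farthest from let-7a, with G12U, A17G, U18C and A19U. Of the 36 pairs of members, 4 differed at 1 base and 10 at 2 bases. A read with 1 sequencing error can therefore match another member, and how such reads were assigned was not stated.

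The seed was shared by 11 of the 1679 mature names in the RefSeq table, the other 2 being let-7k and miR-1961. let-7k had 24 counts over all libraries. let-7j, listed on chromosome 3, differs from let-7i by G8U, inside the seed, and is not a member. It is also longer at the 3′ end, with 24 bases against 22 in let-7i.

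The loci lie in clusters and in introns (GRCm38 coordinates of the mature sequence, GENCODE vM21 genes). let-7a-1 (chr13:48538239-48538260), let-7f-1 (chr13:48537889-48537910) and let-7d (chr13:48536078-48536099) lie together on the minus strand in exonic sequence of the lincRNA gene 6720427I07Rik. let-7c-2 (chr15:85706616-85706637) and let-7b (chr15:85707325-85707346) lie on the plus strand in the non-coding gene Lncppara. let-7f-2 (chrX:151912353-151912374) and miR-98 (chrX:151913229-151913250) lie in an intron of Huwe1, which encodes a ubiquitin ligase.

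let-7g (chr9:106178846-106178867) lies in an intron of Wdr82, and let-7e (chr17:17830366-17830387) in an intron of Spaca6. let-7c-1 (chr16:77599672-77599693) lies in an intron of the miRNA host gene Mir99ahg, and let-7a-2 (chr9:41536732-41536753) in an intron of the non-coding gene 3110039I08Rik. let-7i (chr10:122985698-122985719) lies on the minus strand in exonic sequence of D630033A02Rik and has no other member beside it.

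The libraries held 616565 to 10819400 counts, fewest in PT cells with 616565 to 5093290. Levels are given in CPM, the count of a locus or name scaled to a common library size, after TMM scaling, over all 63 libraries where cell types are compared and within 1 cell type where conditions are compared. A locus was called when the Benjamini-Hochberg false discovery rate (FDR) of edgeR's quasi-likelihood test over all loci tested was under 0.05 and its fold change was above 1.5. In sorted cells, a lower level may reflect less of a miRNA per cell or another mix of cells within the gate, and these cannot be told apart.

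The family made up 3.93% to 22.5% of the counts of a library, with a median of 13.1%. The share was highest in Macs at 18.0% ± 2.46 (SD, n = 16 libraries), against 11.5% ± 1.98 (n = 16) in ECs, 12.2% ± 3.06 (n = 16) in PT cells and 12.1% ± 1.79 (n = 15) in PDGFR-β+ cells. On the TMM scale the order was different, with a median family level of 173708 CPM in ECs, 153924 CPM in PDGFR-β+ cells, 104432 CPM in PT cells and 103852 CPM in Macs. The libraries of PT cells (75874 to 123824 CPM) and Macs (90579 to 141768 CPM) overlapped. Which cell type held the most let-7 therefore turned on the scaling, and no order of the family total is given.

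let-7f was the most abundant member in each library, at a median of 52.6% of the family's counts (range 35.9% to 65.9%). let-7c followed at 16.0% and let-7a at 12.2%, and let-7i at 6.39%. let-7g, let-7e, let-7b and let-7d had median shares of 3.58%, 3.33%, 2.65% and 2.62%, and miR-98 was the rarest at 0.398%.

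The 2 loci of a name were split in a fixed ratio across libraries. The chromosome 9 locus held 67.9% ± 0.327 (SD, n = 63) of the let-7a-5p counts, the chromosome 16 locus 69.2% ± 0.325 of let-7c-5p and the chromosome X locus 96.5% ± 0.114 of let-7f-5p. The mature sequences of such loci are identical, so their counts carry 1 measurement. Counts of called loci are given with the number of names for this reason.

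**Figure D1:**
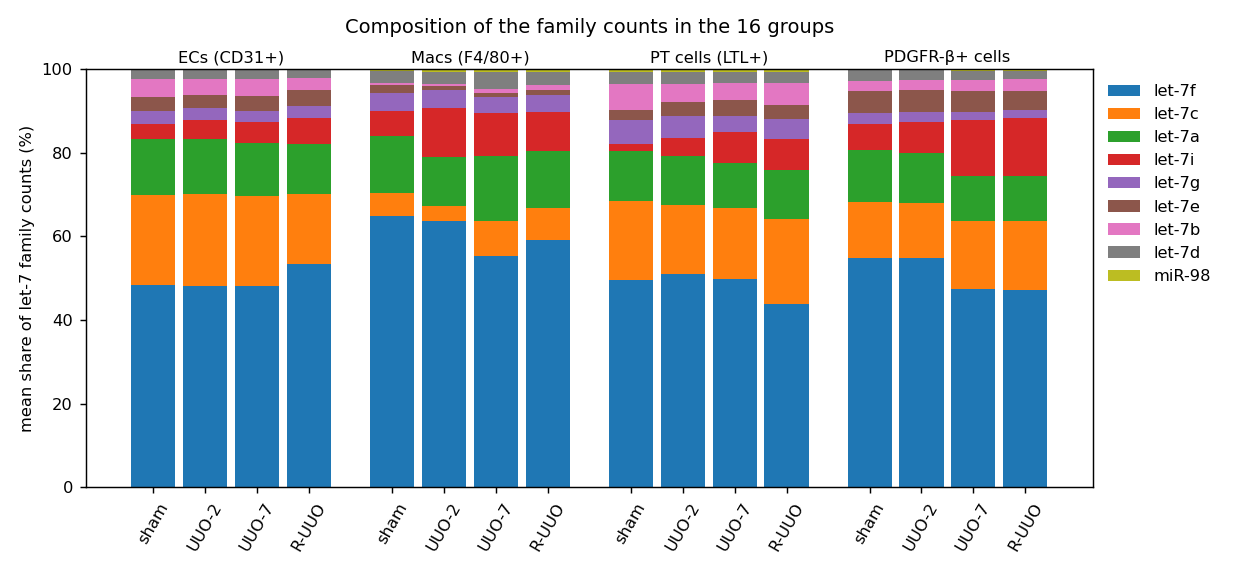
Mean share of each member in the family's counts (y axis, percent; the members of a bar add to 100) for the 16 groups of cell type and condition (x axis). let-7f is the widest band in every bar, the bands of let-7b, let-7c and let-7e are thin in Macs, and the band of let-7i widens from sham to UUO-7 in each cell type.

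The cell types differed most in let-7b, let-7c, let-7e and let-7i. For this, the level in 1 cell type was set against the average of the other 3, over all conditions, in 1 fit of the 671 loci that passed the filter on low counts. All 12 member loci passed it.

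Macs stood apart by low levels of 3 members. let-7b ran from 348 to 2014 CPM in Macs (median 668), against medians of 6060 CPM in ECs, 5255 CPM in PT cells and 3872 CPM in PDGFR-β+ cells. let-7c ran from 3197 to 10873 CPM (median 7178) in Macs, against 35548, 19846 and 23374 CPM in the same order. let-7e ran from 742 to 3055 CPM (median 1055) in Macs, against 5947, 3011 and 7808 CPM.

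Within a mouse, let-7b and let-7c were lowest in Macs in 15 of the 15 mice with all 4 cell types, and let-7e in 14. The log2 differences were -2.77 ± 0.13 (SE) for let-7b, -1.93 ± 0.09 for let-7c on chromosome 15 and -2.07 ± 0.09 for let-7e (edgeR, FDR = 2.1e-26, 1.3e-26 and 1.7e-28). Hence 4 loci of 3 names were called lower and 0 higher in Macs, where 26.8% of all loci tested were called lower and 30.4% higher. In the sham libraries alone these 4 loci were again called lower, where 24.4% of all loci were and 27.1% were higher. They were also called lower under each other scaling, although library size alone called the other 8 member loci higher in Macs. That scaling moved the median of all loci in Macs from -0.24 to 0.68.

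ECs had more of the same members. Here 6 loci of 4 names were called higher and 0 lower, while 26.5% of all loci were called higher and 25.9% lower. The log2 differences were 1.38 ± 0.10 for let-7b, 1.31 ± 0.08 and 1.32 ± 0.08 for the let-7c loci and 0.88 ± 0.08 for let-7e (edgeR FDR = 1.1e-17, 1.8e-22, 3e-22 and 1.6e-15). Both let-7a loci stood at 0.59 ± 0.06, where the threshold is 1.5-fold, and scaling by library size alone turned them to -0.21 and -0.22. That scaling moved the median of all loci in ECs from -0.28 to -1.05, and under it 0 member loci were called higher in ECs and 3 lower. The let-7a loci also missed the fold threshold in the sham libraries alone, where 4 loci of 3 names were called higher and 0 lower against 28.2% and 16.5% of all loci. They missed it without R-UUO replicate 1 or 5, sham replicate 1 or UUO-7 replicate 2 or 3 as well (lowest value 0.55).

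On the TMM scale PDGFR-β+ cells had the most let-7e and let-7i. let-7i ran from 9451 to 22979 CPM (median 12641) there, against medians of 10259 CPM in Macs, 7881 CPM in ECs and 4409 CPM in PT cells. It was highest in PDGFR-β+ cells in 13 of 15 mice, with a log2 difference of 1.05 ± 0.07, and let-7e likewise in 13 of 15 mice, at 1.42 ± 0.08 (edgeR FDR = 3e-21 and 2.3e-24). Both differences were called in all 8 alternatives other than leaving out a mouse, at 0.60 or above for let-7i. Against Macs alone, the order for let-7i turned on the scaling. In Macs let-7i averaged 9.36% of the family and the family 18.0% of the counts, against 10.1% and 12.1% in PDGFR-β+ cells. let-7g was lowest in PDGFR-β+ cells in 15 of 15 mice, at -0.59 ± 0.06 (edgeR FDR = 8e-14), just past the fold threshold. In the sham libraries alone its difference was -0.38 and was not called, and without the mouse of sham replicate 1 it was -0.58. In all, 2 loci were called higher and 1 lower, against 29.1% and 21.9% of all loci. In the sham libraries alone 2 were called higher and 0 lower, against 24% and 22.8%.

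PT cells were low in let-7i, at 1661 to 11386 CPM, with a log2 difference of -1.18 ± 0.07 (edgeR FDR = 1e-21). In the sham libraries alone it was -2.09 ± 0.15. There 6 loci of 4 names, let-7i among them, were called lower and 2 loci of 2 names higher, against 24.9% and 29.1% of all loci. let-7b was higher by 0.95 ± 0.11, and let-7f differed by -0.66 ± 0.05 on chromosome 13 and -0.61 ± 0.05 on chromosome X (edgeR FDR = 1.1e-11, 5.5e-17 and 9.8e-17). Thus 1 locus was called higher and 3 loci of 2 names lower, where 32.9% and 26.8% of all loci were. The let-7f difference was -0.37 and -0.33 under library size alone, short of the fold threshold. On the TMM scale miR-98 was highest in PT cells in 13 of 15 mice, with a difference of 0.54 ± 0.05 that did not reach the fold threshold. Its order between PT cells and Macs turned on the scaling. miR-98 averaged 0.651% of the family in PT cells and 0.555% in Macs, where the family averaged 12.2% and 18.0% of the counts.

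**Figure D2:**
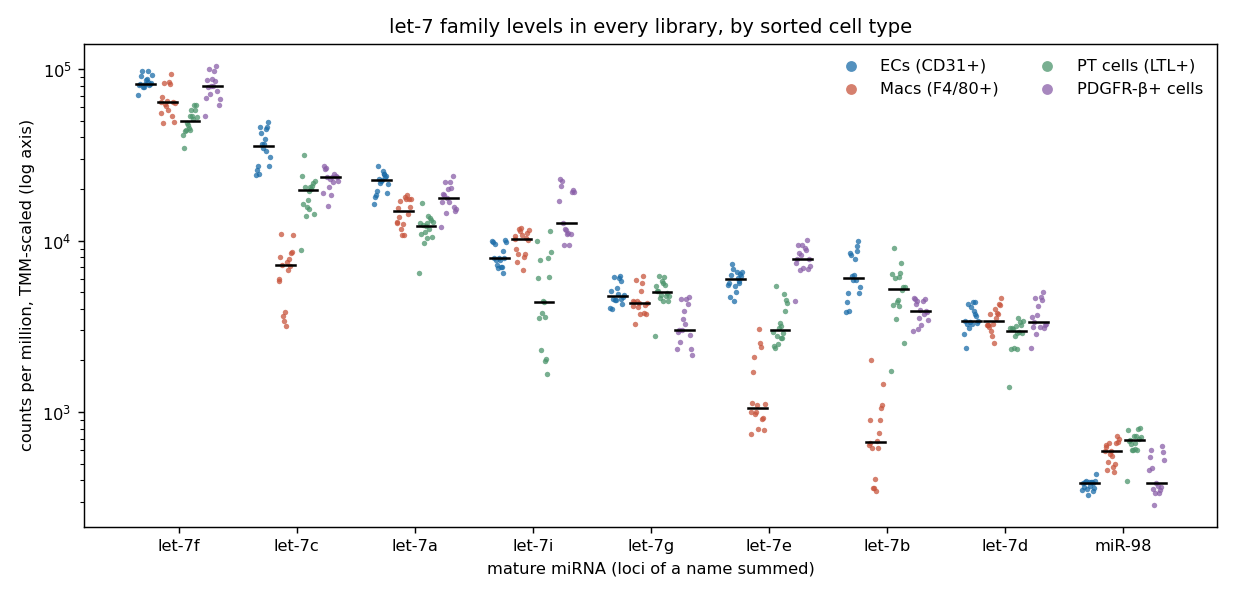
Level of each member (x axis) in every library, in TMM-scaled CPM on a log axis, coloured by cell type; black bars are medians over the 15 or 16 libraries of a cell type. let-7b, let-7c and let-7e lie lowest in Macs, and in PT cells let-7i has its lowest median and miR-98 its highest.

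Before the conditions are compared, some PT libraries need mention. PT R-UUO replicate 1 had the lowest family share, 3.93% of its counts, the lowest summed PT markers (miR-192-5p, miR-194-5p, miR-204-5p and miR-215-5p) at 17302 CPM, and the highest summed stromal markers of any PT library (miR-199a, miR-214-3p, miR-143-3p and miR-145a-5p) at 25839 CPM. The let-7i result for R-UUO PT cells is given with and without it. PT UUO-7 replicate 4 had a stromal sum of 18215 CPM, against 7031 to 8484 CPM in the other UUO-7 PT libraries. It also had the lowest PT marker sum of that group (33872.5 CPM) and the highest let-7i of any PT library. The let-7i result for UUO-7 PT cells is likewise given with and without that library. The median of each cell type's list was highest in its own cell type in all 4 conditions. That does not show that a gate was free of other cells. The stromal sum in ECs had a median of 14693 CPM in sham and 28369 CPM in R-UUO (7663 to 46035), against 145806 CPM in R-UUO PDGFR-β+ cells.

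let-7i was the member with the widest response to obstruction, and it was higher than in sham in all 4 cell types by day 7. Among PT cells it stood at 2735, 2301, 2400 and 1984 CPM in sham, and at 4377, 5094, 4990 and 4011 CPM in UUO-2. In UUO-7 it stood at 8503, 6899, 12752 and 9246 CPM, and in R-UUO at 12146, 6698, 4164 and 8593 CPM. The sham libraries lay below all others and the UUO-2 libraries below all of UUO-7, while R-UUO spread over both.

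The change in PT cells reached 1.96-fold after 2 days (log2 0.97 ± 0.26 SE, edgeR FDR = 0.0155), 3.97-fold after 7 days (1.99 ± 0.26, FDR = 4.1e-05) and 3.35-fold after reversal, each against sham (1.75 ± 0.26, FDR = 1e-04). Without R-UUO replicate 1 the last was 1.51, with an FDR of 0.000145. Without UUO-7 replicate 4 the log2 change after 7 days was 1.78, with an FDR of 0.00022. let-7i was the 1 member locus of 12 called in each of these comparisons, where 14.8%, 25.5% and 25.8% of the 330 loci tested were called higher and 4.24%, 17.6% and 13% lower. It was called in all alternatives and in each run that left out a library. Some members that were not called also lay apart from sham in PT cells. let-7b was at 4087 to 5164 CPM in UUO-2 and 2823 to 6044 CPM in UUO-7, against 7095 to 8898 CPM in sham. At UUO-7 let-7g lay below sham (4963 to 5564 against 6549 to 7432 CPM) and let-7e above it (4392 to 5234 against 3108 to 3462 CPM). let-7c lay below sham at UUO-2 (16186 to 19841 against 22594 to 24442 CPM). In R-UUO let-7b and let-7e overlapped sham. let-7f (38243 to 51571 against 58429 to 66932 CPM) and let-7g (3349 to 6031 against 6549 to 7432 CPM) lay below sham in R-UUO. The share of all loci without overlap was not computed. Between R-UUO and UUO-7, 0 member loci were called in PT cells with edgeR and 0 with DESeq2, and 2 had an unadjusted p under 0.05 (edgeR). Of all loci, 0.606% were called higher there and 0.909% lower.

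The stromal marker sum moved along with let-7i in PT cells, from a median of 2450 CPM in sham (range 1617 to 3496) to 7469 CPM at UUO-2 (6672 to 10151), 7967 CPM at UUO-7 (7031 to 18215) and 5209 CPM in R-UUO (3825 to 25839). The median PT marker sum went from 126820 CPM in sham to 62539, 43016 and 48739 CPM. At UUO-7 the stromal list in PT cells stood at 5.38% of its level in PDGFR-β+ cells, while let-7i stood at 42.6% of its level there. In sham these were 0.644% and 18.4%. The Mac marker sum (both arms of miR-142a, miR-223-3p and miR-511-3p) had medians of 81 CPM in sham (73 to 106), 160 CPM at UUO-2 (139 to 236), 200.1 CPM at UUO-7 (136 to 237) and 152 CPM in R-UUO (102 to 281). The lymphoid marker miR-150-5p went from 27 CPM in sham (21 to 30) to 66 CPM at UUO-2 (32 to 113), 57 CPM at UUO-7 (36 to 74) and 67 CPM in R-UUO (12 to 150). At UUO-2 and UUO-7 neither overlapped sham. The part of sorting purity in the let-7i result was not tested.

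PDGFR-β+ cells showed a rise of let-7i at UUO-7 and in R-UUO. It stood at 9230, 9660, 7161 and 8726 CPM in sham, at 8174, 9312, 9382 and 8438 CPM in UUO-2, at 13960, 15071 and 15490 CPM in UUO-7, and at 13846, 16590, 14464 and 18173 CPM in R-UUO. The sham and UUO-2 libraries overlapped, and all 7 later libraries lay above them. The change was 1.71-fold at UUO-7 (log2 0.77 ± 0.12, edgeR FDR = 8.6e-05) and 1.81-fold in R-UUO (0.86 ± 0.11, FDR = 1.9e-05).

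Macs reached their highest let-7i at day 2. The levels were 13046, 10620, 13130 and 12245 CPM in sham, 19704, 20464, 20664 and 20198 CPM in UUO-2, 18057, 19463, 18719 and 17689 CPM in UUO-7, and 16883, 17072, 13732 and 12754 CPM in R-UUO. Neither obstructed group overlapped sham, while R-UUO did. The change was 1.65-fold at UUO-2 (log2 0.72 ± 0.11, edgeR FDR = 4.9e-05) and 1.51-fold at UUO-7 (0.59 ± 0.11, FDR = 0.000155), both close to the fold threshold. Of the 9 alternatives other than the runs that left out a single library, 2 kept the UUO-7 call. The value was 0.46 with only the sham and UUO-7 groups in the fit and 0.47 with no filter on low counts. Each run that left out a library also redid the filter and the scaling. Those runs gave 0.34 to 0.49 at UUO-7 and 0.48 to 0.66 at UUO-2, all under the values reported whichever library was missing, so they do not separate single libraries from the processing. At UUO-2 the call was kept without sham replicate 4 or UUO-2 replicate 4 and not in the other runs.

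ECs had a smaller difference that missed the fold threshold. let-7i stood at 4618, 4534, 4355 and 4008 CPM in sham, 5395, 5019, 5031 and 5095 CPM in UUO-2, 6115, 5529, 6564 and 6158 CPM in UUO-7 and 7101, 5913, 5572 and 6442 CPM in R-UUO. All 12 later libraries lay above the sham libraries. The log2 change was 0.48 ± 0.09 at UUO-7 (edgeR FDR = 0.00329) and 0.51 ± 0.09 in R-UUO (FDR = 0.00102).

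As a share of the family, which does not depend on scaling, let-7i moved from 1.88% ± 0.263 (SD, n = 4) in sham to 7.31% ± 2.06 (n = 4) in UUO-7 PT cells. In PDGFR-β+ cells it moved from 6.25% ± 0.537 (n = 4) to 13.6% ± 0.708 (n = 3), in Macs from 5.99% ± 0.57 to 10.3% ± 0.473 and in ECs from 3.69% ± 0.16 to 5.24% ± 0.942 (n = 4 each). A share also rises when other members fall. From sham to UUO-7 the mean family level went from 139251 to 108987 CPM in PDGFR-β+ cells and from 204670 to 179482 CPM in Macs. In PT cells it went from 125579 to 128534 CPM and in ECs from 118578 to 117971 CPM.

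**Figure D3:**
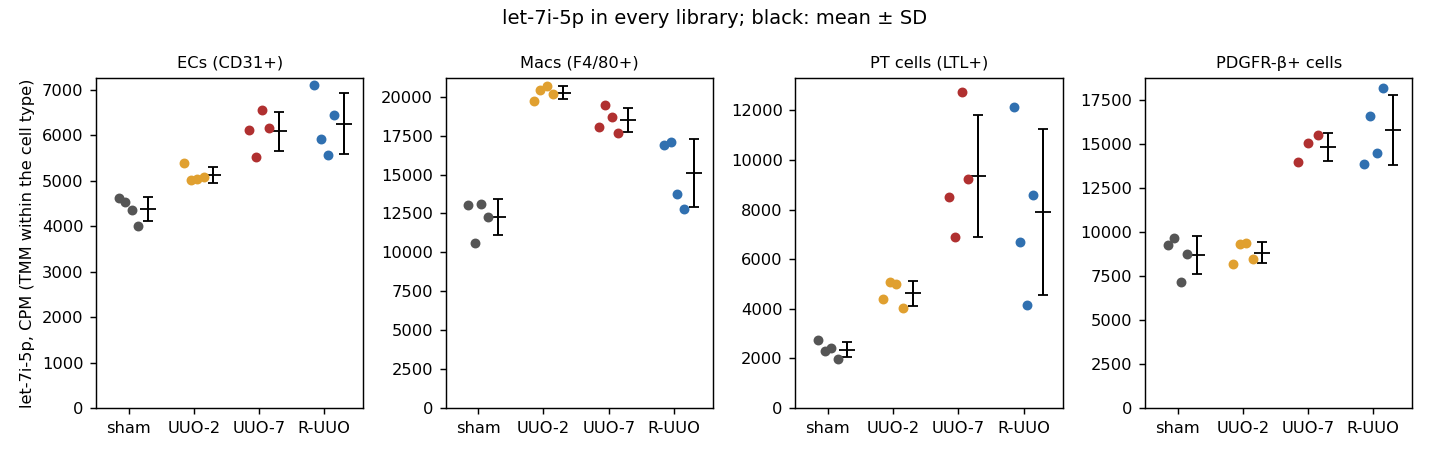
let-7i-5p in every library of the 4 cell types (panels), in CPM scaled within the cell type (y axis from 0), by condition (x axis); black marks are the mean ± SD. All UUO-7 libraries lie above all sham libraries in each panel, with the widest gap in PT cells (sham 1984 to 2735, UUO-7 6899 to 12752).

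The size of the UUO-7 change of let-7i differed between cell types in a test of the difference itself, each cell type against the mean change of the other 3. The log2 difference was 1.54 ± 0.19 in PT cells (edgeR FDR = 5.7e-09) and -0.74 ± 0.19 in ECs (FDR = 0.00407). In Macs it was -0.65 ± 0.19 (FDR = 0.00999), but it was not called with DESeq2 (-0.30, adjusted p = 0.254) and in 10 of the 16 runs that left out a mouse. The median of all loci in these contrasts was 0.04 in PT cells, -0.37 in ECs and -0.12 in Macs, and relative to it the let-7i differences were 1.50, -0.37 and -0.53. These contrasts share libraries, so the positive and negative differences are not separate evidence.

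let-7j differs from let-7i by 1 seed base and a longer 3′ end. It was called higher in the same PT comparisons, with log2 changes of 1.24 ± 0.36, 1.83 ± 0.36 and 2.76 ± 0.36 in the same order (edgeR FDR = 0.0243, 0.000704 and 4.1e-05). Its counts were between 0.481% and 2.75% of those of let-7i in a library. Whether these reads came from let-7i was not tested.

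Among the other members, let-7e fell in Macs. Its levels were 3255, 4784, 4146 and 3543 CPM in sham, 1641, 1812, 1912 and 1487 CPM in UUO-2, 1601, 1628, 1463 and 1689 CPM in UUO-7, and 1227, 1603, 1732 and 2929 CPM in R-UUO. No later library reached the lowest sham library. The level was 2.29-fold lower after 2 days (log2 -1.20 ± 0.20, edgeR FDR = 0.000196), 2.46-fold lower after 7 days (-1.30 ± 0.20, FDR = 4.6e-05) and 2.1-fold lower in R-UUO (-1.07 ± 0.20, FDR = 0.000453). It was called in all alternatives and in each run that left out a library.

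The neighbours of let-7e on chromosome 17 fell with it in Macs at UUO-7, with log2 changes of -1.06 ± 0.14 for miR-99b-5p and -1.15 ± 0.18 for miR-125a-5p (edgeR FDR = 1.2e-05 and 3.8e-05). The fall was not particular to this cluster. On chromosome 16, miR-99a-5p and miR-125b-5p changed by -1.04 ± 0.17 and -0.99 ± 0.13 there (FDR = 7.4e-05 and 1.2e-05). On chromosome 9, miR-125b-5p changed by -0.95 ± 0.14 (FDR = 2.2e-05), while miR-100-5p was not called (0.17 ± 0.48). Nor was let-7c on chromosome 16. In R-UUO, where let-7e was still called lower than in sham, its chromosome 17 neighbours were not called, at -0.21 ± 0.14 and -0.21 ± 0.17 (FDR = 0.265 and 0.355). Both were called higher than at UUO-7 (0.85 ± 0.14 and 0.94 ± 0.17, FDR = 0.000468 and 0.00111). Whether let-7e and these neighbours differed was not tested. In PDGFR-β+ cells at UUO-7 the neighbours of let-7c-1 on chromosome 16, miR-99a-5p and miR-125b-5p, rose by 1.35 ± 0.22 and 2.19 ± 0.22 (FDR = 0.000103 and 1.4e-06), while let-7c at that locus had a log2 change of -0.06 ± 0.13 (FDR = 0.723) and was not called.

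let-7c fell in Macs at UUO-2. It was at 11271, 11722, 10926 and 11426 CPM in sham, 6137, 6119, 6641 and 5996 CPM in UUO-2, 12482, 14809, 16090 and 16525 CPM in UUO-7, and 9627, 9535, 12402 and 18490 CPM in R-UUO. The UUO-2 libraries lay below all sham libraries and the UUO-7 libraries above them, while R-UUO overlapped sham. The fall at UUO-2 was 1.85-fold on chromosome 15 and 1.81-fold on chromosome 16 (log2 -0.89 ± 0.17 and -0.86 ± 0.17, edgeR FDR = 0.000546 and 0.000736). At UUO-7 the log2 change was 0.40 ± 0.17 at both loci (FDR = 0.0528 and 0.0551) and was not called.

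let-7b, beside let-7c-2, rose in Macs at UUO-7, with 960, 1058, 1005 and 1112 CPM in sham, 608, 646, 709 and 652 CPM in UUO-2 and 1576, 1848, 2035 and 2232 CPM in UUO-7, with UUO-2 below and UUO-7 above all sham libraries. The UUO-2 difference, -0.66 ± 0.28 on the log2 scale (edgeR FDR = 0.0752), was not called. The rise at UUO-7 was 1.86-fold (log2 0.90 ± 0.28, edgeR FDR = 0.0128). The runs without 1 library gave 0.68 to 0.80, again all under the value reported, and 3 of the 8 lost the call, with an FDR of 0.0665 without sham replicate 1 or 3 and 0.0546 without UUO-7 replicate 4. In R-UUO it stood at 1069, 1053, 1391 and 3425 CPM. The call against sham (0.74 ± 0.28, FDR = 0.0422) rested on replicate 5, without which the log2 change was 0.06 (FDR = 0.728), and it was also lost without sham replicate 1, 2, 3 or 4 or R-UUO replicate 4 (0.55 to 0.66) and was kept under 1 of 9 alternatives.

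miR-98 moved in Macs from 796, 752, 728 and 735 CPM in sham to 1161, 1278, 1242 and 1068 CPM in UUO-7, without overlap. The change was 1.58-fold (log2 0.66 ± 0.11, edgeR FDR = 0.000106) and was close to the fold threshold. Of 9 alternatives, 4 kept the call, and the value was 0.52 with only these groups in the fit and 0.54 with no filter on low counts. The runs without 1 library, which redid the filter and the scaling, gave 0.46 to 0.58 whichever library was missing. Its opposite arm, miR-98-3p, was lower in the same comparison (-0.76 ± 0.23, FDR = 0.0118), from 86 to 244 counts in the sham libraries and 43 to 79 in the UUO-7 libraries. The difference between the arms was not tested.

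In all, Macs had 4 member loci called at UUO-2, 1 higher and 3 (of 2 names) lower, where 18.4% and 9.19% of the 457 loci tested were called. At UUO-7 it was 3 higher and 1 lower, against 26.3% and 16.8%. In R-UUO against sham it was 1 higher and 1 lower, against 21.4% and 10.5%. Between R-UUO and UUO-7, 0 of 12 were called with edgeR and 0 with DESeq2, with 5 at an unadjusted p under 0.05 (edgeR) and 12.7% and 7.22% of all loci called higher and lower. The median change of all loci was 0.15, 0.22 and 0.12 in the 3 comparisons with sham. Relative to it, the let-7i change at UUO-7 was 0.38 and that of let-7e -1.52. With the fold threshold set aside, 10, 8 and 9 of the 12 loci had an FDR under 0.05. let-7f was not called but stood at 129016 to 137139 CPM in sham, above UUO-2 (106023 to 113831), UUO-7 (92113 to 113484) and R-UUO (82574 to 105867). let-7g also lay below sham in each condition, and let-7a at UUO-2 and in R-UUO. let-7d lay above sham at UUO-7 and below it in R-UUO. The shares of all loci for these counts were not computed.

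Other lists moved in Macs as well. The Mac marker sum had a median of 40249 CPM in sham and 18490 CPM in UUO-7. In the same libraries the PT marker sum went from 3646 to 1530 CPM, the endothelial sum from 1385 to 843 CPM and the stromal sum from 4054 to 3937 CPM. miR-150-5p went from a median of 129 CPM in sham (92 to 164) to 591 CPM in UUO-7 (454 to 744), without overlap, and the erythroid sum (both arms of miR-144, miR-451a and the 5p arms of miR-486a and miR-486b) from 760 CPM (554 to 1027) to 1116 CPM (981 to 1126), with overlap. Their part in the member changes in Macs was not tested.

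In PDGFR-β+ cells let-7g and let-7d fell while let-7i and miR-98 rose. let-7g stood at 3346, 3974, 3216 and 3731 CPM in sham, 2589, 2796, 3171 and 2530 CPM in UUO-2, 2044, 1797 and 1736 CPM in UUO-7, and 1897, 2129, 2098 and 2080 CPM in R-UUO. Each later library lay below all sham libraries. It was 1.92-fold lower at UUO-7 (log2 -0.94 ± 0.12, edgeR FDR = 1e-05) and 1.74-fold lower in R-UUO (-0.80 ± 0.11, FDR = 2.3e-05), and leaving out any 1 library kept both calls.

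let-7d moved from 3379, 4083, 3425 and 3996 CPM in sham to 2234, 2459 and 2599 CPM in UUO-7 and 1917, 2590, 2189 and 2732 CPM in R-UUO. It was 1.53-fold and 1.58-fold lower (log2 -0.61 ± 0.15 and -0.66 ± 0.14, edgeR FDR = 0.00338 and 0.00132). The UUO-7 value fell short of 1.5-fold without sham replicate 4 (-0.58) or UUO-7 replicate 2 (-0.56), and the R-UUO value without R-UUO replicate 1 (-0.58).

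miR-98 stood at 261, 294, 266 and 291 CPM in sham, 461, 447 and 419 CPM in UUO-7 and 374, 395, 422 and 385 CPM in R-UUO, without overlap with sham. Its change was 1.59-fold at UUO-7 (log2 0.67 ± 0.12, edgeR FDR = 0.000408) and 0.50 ± 0.12 on the log2 scale in R-UUO, under the fold threshold. let-7a and let-7f had log2 changes of -0.54 to -0.58 at UUO-7, with FDRs of 0.0031 to 0.0085, also short of 1.5-fold.

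These changes have to be read against a shift of the whole profile. The median of all 477 loci tested in PDGFR-β+ cells was 0.50 at UUO-7 and 0.40 in R-UUO against sham, on the log2 scale. Relative to it, let-7i at UUO-7 was higher by 0.28 and miR-98 by 0.17, while let-7g was at -1.44 and let-7d at -1.11. The median of the 12 member loci was -0.46, which is -0.96 relative to all loci. That difference was -0.95 to -0.96 under the other 3 scalings. A scaling shifts all loci by nearly the same amount, so the difference could hardly move and this is no test of it. Under library size alone let-7g and let-7d were no longer called at UUO-7 or in R-UUO, and with DESeq2 let-7i and miR-98 were not called at UUO-7 (log2 0.54 and 0.43).

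At UUO-7, 2 member loci were called higher and 2 lower in PDGFR-β+ cells, where 34% and 14.3% of all loci were called. In R-UUO against sham it was 1 higher and 2 lower, against 27.9% and 13.8%. At UUO-2, 0 of 12 were called with edgeR and 0 with DESeq2, with 4 at an unadjusted p under 0.05 (edgeR), and 5.66% and 0.629% of all loci called. Between R-UUO and UUO-7, 0 were called by either tool and 0 had an unadjusted p under 0.05 (edgeR), with 3.14% and 0.839% of all loci called. The stromal marker sum in these cells had a median of 380326 CPM in sham and 148068 CPM in UUO-7, and the Mac marker sum went from 71 to 339 CPM. Their part in the changes was not tested.

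**Figure D4:**
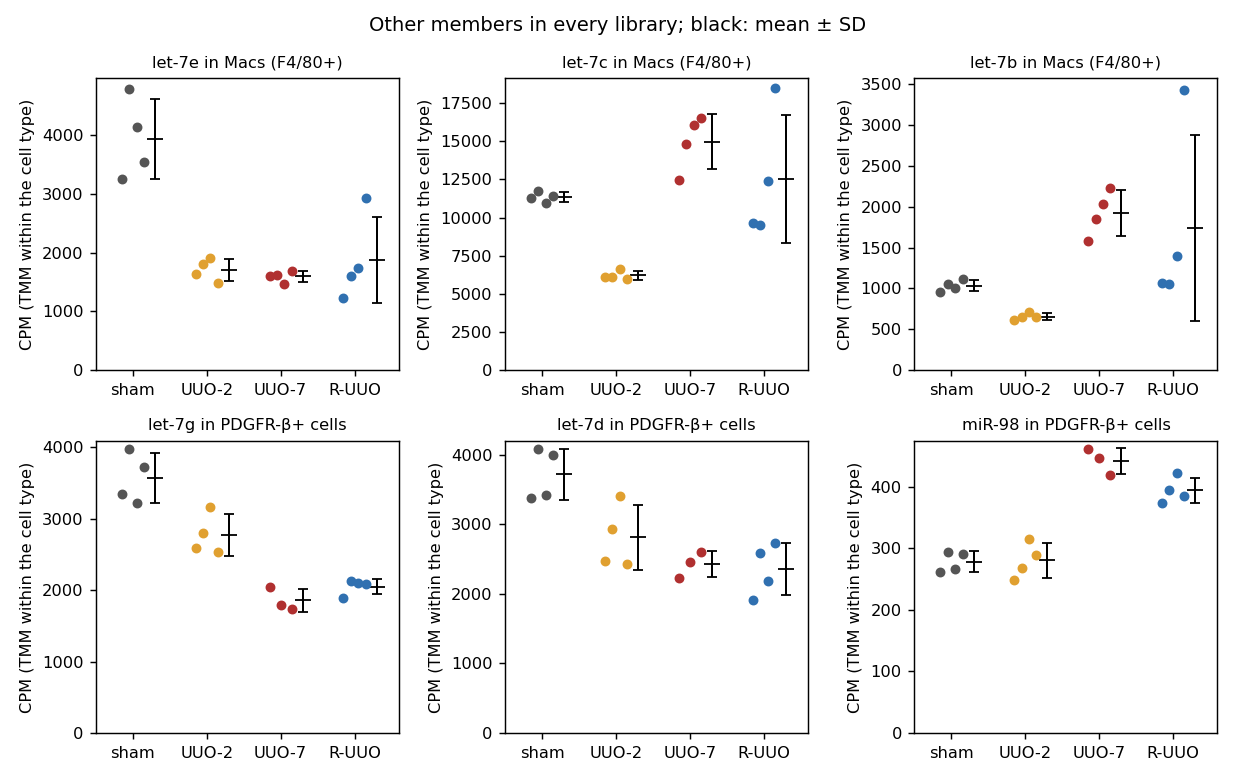
Levels of let-7e, let-7c and let-7b in Macs (top) and of let-7g, let-7d and miR-98 in PDGFR-β+ cells (bottom) in every library, in CPM scaled within the cell type (y axis from 0), by condition; black marks are the mean ± SD. The sham libraries of let-7e, let-7g and let-7d lie above all UUO-7 libraries, and those of miR-98 and let-7b below them.

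In ECs 1 member locus was called in the comparisons of conditions, in R-UUO. At UUO-2, 0 of 12 member loci were called with edgeR and 0 with DESeq2, with 2 at an unadjusted p under 0.05 (edgeR) and 1.49% and 0.213% of the 469 loci tested called higher and lower. At UUO-7 the counts were again 0 and 0, with 2 at an unadjusted p under 0.05 (edgeR) and 6.18% and 5.33% of all loci called. Between R-UUO and UUO-7, 0 were called with edgeR and 3 with DESeq2, with 6 at an unadjusted p under 0.05 (edgeR) and 0.853% and 0.213% of all loci called.

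After reversal let-7b was lower in ECs than in sham, at 2750, 2617, 3462 and 2618 CPM against 5126, 5059, 3643 and 5807 CPM, without overlap. The level was 1.72-fold lower (log2 -0.78 ± 0.23, edgeR FDR = 0.0221), the 1 locus of 12 called lower, with 0 called higher, where 5.12% and 11.7% of all loci were. The FDR of let-7b was 0.0934 to 0.147 without R-UUO replicate 1, 2 or 5 or sham replicate 1, 2 or 4. The stromal marker sum in ECs ranged from 7663 to 46035 CPM in R-UUO and from 11309 to 24337 CPM in sham, and its part in the result was not tested. let-7g in ECs had log2 changes of -0.30 ± 0.08 at UUO-7 (FDR = 0.016) and -0.35 ± 0.08 in R-UUO (FDR = 0.00353), a small difference with no overlap between sham and either group. In R-UUO let-7a (10780 to 13206 CPM, sham 15194 to 16473) also lay below all sham libraries. So did let-7c (15443 to 19145, sham 20726 to 28019) and let-7d (1652 to 2194, sham 2406 to 2840). let-7i lay above sham, and let-7e, let-7f and miR-98 overlapped it. With the fold threshold set aside, 8 of the 12 loci had an FDR under 0.05. Their median change was -0.36, against 0.04 for all loci. The shares of all loci for these counts were not computed.

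The difference between cell types in the UUO-7 change was also called for 2 other members. For let-7e the log2 change in Macs differed by -1.53 ± 0.23 from the mean change of the other cell types, and that in PT cells by 1.27 ± 0.23 (edgeR FDR = 3.7e-07 and 1.1e-05). In PT cells themselves let-7e had a change of 0.57 ± 0.20 (FDR = 0.0309), short of 1.5-fold, and under library size alone the PT difference was 0.59 (FDR = 0.114). For let-7b the change in Macs differed by 1.04 ± 0.32 (FDR = 0.0133). The called loci were 1 higher and 2 lower in Macs, 2 higher in PT cells and 1 lower in ECs, where 7%, 13.1%, 15.4% and 10.9% of all loci were called in those directions. In the opposite directions it was 8.49% in PT cells and 0.894% in ECs. In PDGFR-β+ cells 0 were called by edgeR and 0 by DESeq2, with 6 at an unadjusted p under 0.05 (edgeR) and 14% and 8.79% of all loci called. All comparisons with sham within a cell type share the sham libraries, and those with UUO-7 share the UUO-7 libraries.

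**Figure D5:**
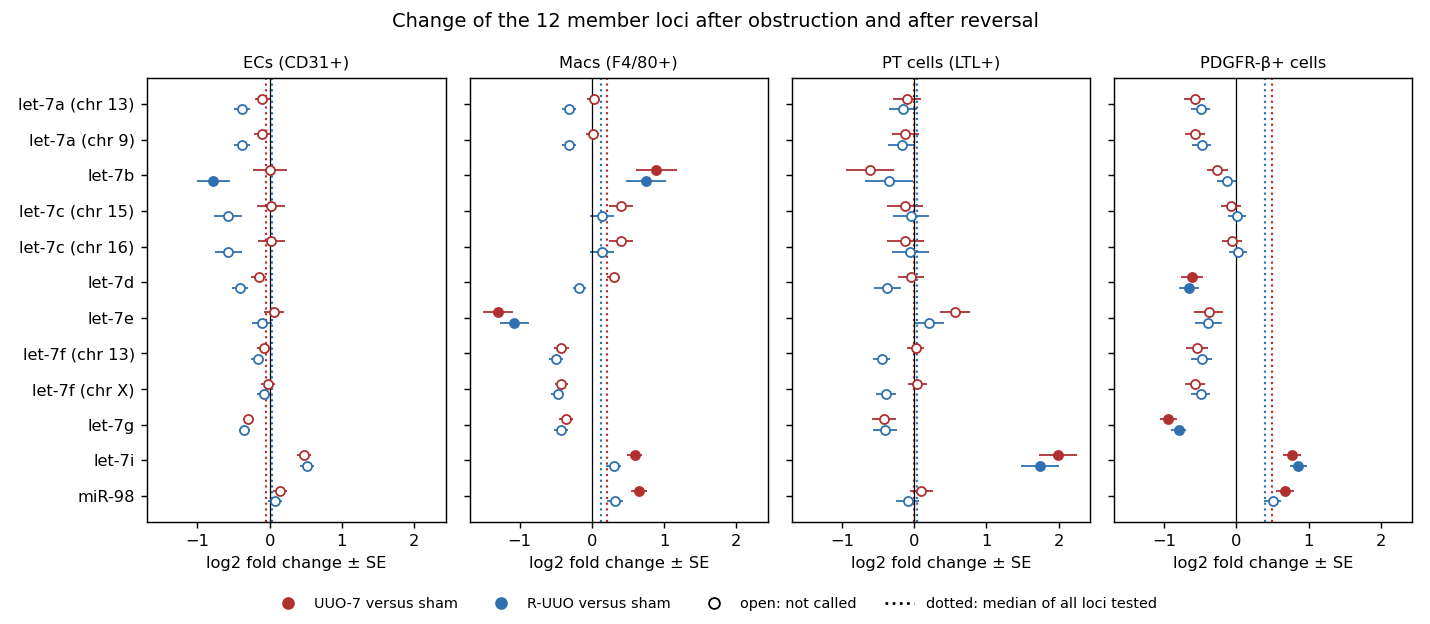
Log2 fold change ± SE (x axis) of the 12 member loci (y axis) at UUO-7 and in R-UUO, each against sham, in the 4 cell types (panels); filled points were called, and dotted lines mark the median of all loci tested. let-7i stands to the right in PT cells (1.99 at UUO-7), let-7e to the left in Macs (-1.30) and let-7g to the left in PDGFR-β+ cells (-0.94).

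The opposite (3p) arms were far rarer than the 5p arms for most hairpins. let-7i-3p averaged 0.0761% to 0.141% of the counts of both arms across cell types and let-7g-3p 0.0751% to 0.128%, while miR-98-3p averaged 4.12% to 7.26% and let-7d-3p 24.7% to 29.3%. let-7d was thus the hairpin with the most balanced arms among those with 1 locus. In PDGFR-β+ cells let-7d-3p fell with let-7d-5p, with log2 changes of -0.73 ± 0.21 at UUO-7 and -0.64 ± 0.19 in R-UUO (edgeR FDR = 0.00806 and 0.0137). let-7a-1-3p and let-7c-2-3p have identical sequences and cannot be told apart.

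Among the 659 other loci compared, those whose level followed the family total most closely over the 16 group means were miR-26a-5p on chromosomes 10 and 9 (Pearson r = 0.919 each) and miR-3074-5p on chromosome 8 (r = 0.919). The points share the 63 libraries, their scaling and the 4 cell types.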

How the data were processed

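Small RNA was sequenced from 63 libraries of 4 sorted cell types. The authors trimmed reads with Trim Galore 0.4.1 and Cutadapt 1.1 and mapped them with Bowtie through ShortStack to GRCm38 with miRBase 22. The deposited values are raw counts per miRNA locus. Strand use and the placement of reads that map to several loci were not given in the sources used here.

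From these counts, edgeR 4.0.16 (R 4.3.3) was fitted with TMM scaling, its filter on low counts and the quasi-likelihood test, within a cell type for conditions and over all 63 libraries for cell types. A call needed a Benjamini-Hochberg FDR under 0.05 and a fold change above 1.5, as in the study. All 9 names were reported at all loci. DESeq2 1.42.0, other scalings, filters and sample sets, and each replicate left out were alternatives. The scripts were tested on simulated data. The rule for the members uses names alone, but the family and the lists were chosen with earlier results of these data known.

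Cell types with the same number in a condition came from 1 mouse by design. Over 93 such pairs the median correlation of deviations from the group means was 0.049, against -0.017 for 279 pairs of different mice. Libraries of a group came from different mice.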

Additional observations from a re-analysis of the deposited data

Results flagged for a closer look

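Each member and the family total was examined in each group of 4 libraries, which gave 150 sets of 4 values. In 9 sets 1 library lay far from its other 3, by Dixon's test at its 95% critical value. Chance gives about 1 in 20, but the sets share libraries and are not independent. let-7b stood at 3462 CPM in EC R-UUO replicate 4 (others 2617 to 2750), at 3425 CPM in Mac R-UUO replicate 5 (others 1053 to 1391) and at 2823 CPM in PT UUO-7 replicate 4 (others 5520 to 6044). let-7e stood at 5109 CPM in EC UUO-2 replicate 1 (others 3253 to 3485). let-7f stood at 38243 CPM in PT R-UUO replicate 2 (others 49531 to 51571) and at 71362 CPM in PDGFR-β+ UUO-2 replicate 3 (others 62135 to 63483). let-7g stood at 7946 CPM in Mac sham replicate 2 (others 9140 to 9187) and at 3349 CPM in PT R-UUO replicate 1 (others 5656 to 6031). miR-98 stood at 1110 CPM in Mac UUO-2 replicate 1 (others 1022 to 1036).

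The UUO-7 change differed between cell types for 3 members, in edgeR's test of the difference itself. For let-7i the log2 difference from the average change of the other cell types was -0.74 in ECs, -0.65 in Macs and 1.54 in PT cells. Relative to the median of all loci these were -0.37, -0.53 and 1.50. For let-7e it was -1.53 in Macs and 1.27 in PT cells, and for let-7b 1.04 in Macs.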

How the results depend on the processing

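Of 44 single-locus calls, 21 were kept under all alternatives other than leaving out a library. The 2 loci of a name count separately here. Among those kept were let-7i in PT cells, let-7e and let-7c in Macs and the cell-type differences of let-7b, let-7c and let-7e in Macs. Library size alone lost the most, 15, and turned let-7a in ECs to -0.21 (chromosome 13) and -0.22 (chromosome 9). The cause of each change was not tested. The counts of called member loci that moved by over 1.5 times are as follows, by setting. Apart from the sham libraries alone, the share of all loci called was not computed for these settings or for the runs below. These counts therefore cannot be set against the whole profile, which moved as well. For R-UUO against sham in ECs the median log2 change of all loci was 0.04 as reported and -0.27 with library size alone. With library size alone, ECs against the other types went from 6 to 3 loci, Macs from 4 to 12, R-UUO against sham from 1 to 7 in ECs and from 1 to 3 in PT cells, R-UUO against UUO-7 from 0 to 3 in ECs and from 0 to 1 in Macs, UUO-7 in PDGFR-β+ cells from 4 to 2, and the difference of the UUO-7 change in PDGFR-β+ cells from 0 to 1. With DESeq2 size factors and with the DESeq2 test alike, R-UUO against sham in ECs came to 3, UUO-7 and R-UUO against sham in PDGFR-β+ cells to 7 each, and the difference of the UUO-7 change to 5 in Macs and 4 in PT cells. The size factors also took R-UUO against sham in Macs from 2 to 1, and the DESeq2 test R-UUO against UUO-7 in ECs from 0 to 3. With TMM computed without the members, R-UUO against sham came to 3 in ECs and 4 in Macs, UUO-7 to 8 in PDGFR-β+ cells and 2 in Macs, R-UUO against UUO-7 to 1 in Macs, and the difference of the UUO-7 change to 2 in PDGFR-β+ cells and 4 in PT cells. Without the filter, UUO-7 came to 2 in PT cells, 2 in Macs and 1 in ECs, UUO-2 to 2 in PT cells, R-UUO against UUO-7 to 3 in ECs, and R-UUO against sham to 2 in ECs and 4 in Macs. In the fit over all 63 libraries, R-UUO against sham came to 3 in ECs and 1 in Macs, and UUO-7 to 2 in Macs and 2 in PT cells. With only the 2 groups compared, UUO-7 came to 8 in PDGFR-β+ cells, 2 in PT cells and 2 in Macs, UUO-2 to 2 in PT cells and R-UUO against sham to 1 in Macs. With the loci of a name summed, UUO-7 came to 1 name in ECs and 2 in PT cells, and the difference of the UUO-7 change to 0 in ECs and 3 in PDGFR-β+ cells. In the sham libraries alone PT cells went from 4 to 8.

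Across conditions the mice share only a number. With the replicate number as a block, R-UUO against sham came to 0 in ECs and 1 in Macs, and UUO-7 to 8 in PDGFR-β+ cells and 2 in PT cells. The median correlation of deviations over 74 same-numbered pairs was -0.017, and 8 of 63 libraries correlated best with their own number. The mouse block moved no count of the cell-type comparisons by over 1.5 times.

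Leaving out 1 library or mouse at a time gave 4 to 7 loci for ECs against the other types, 4 to 4 for Macs, 4 to 6 for PT cells and 2 to 3 for PDGFR-β+ cells. With the cell types in that same order, it gave 0 to 0, 5 to 6, 1 to 1 and 0 to 0 for UUO-2, and 0 to 1, 1 to 5, 1 to 2 and 3 to 8 for UUO-7. For R-UUO against sham it gave 0 to 3, 1 to 5, 1 to 2 and 2 to 6, for R-UUO against UUO-7 0 to 3, 0 to 1, 0 to 1 and 0 to 0, and for the difference of the UUO-7 change 1 to 1, 2 to 5, 2 to 4 and 0 to 4. Each of these runs also redid the filter on low counts and the scaling, so a range need not hold the count reported, as for UUO-2 in Macs with 4 loci, and a change in these runs is not that of the missing library alone. Groups of 3 or 4 libraries and the low depth of PT cells limit all of these counts, and many calls lie near the fold threshold.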
